A study of Mus musculus with 24 samples.

Results

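The 33 genes described here are genes of endothelial identity and angiogenic signalling, taken by symbol from a list of surface and junction proteins, members of the VEGF, angiopoietin-Tie and apelin-adrenomedullin pathways, and endothelial transcription factors. All 33 were found among the 55416 gene identifiers of the count table, each under 1 identifier, and all 33 passed the filter on low counts that left 18005 genes for testing. The RNA came from inner medulla of the kidney, taken at 72 h after 1 intraperitoneal injection (100 µl) into C57BL/6 mice that were 9 to 10 weeks old. The libraries comprised 6 from males given cisplatin at 15 mg/kg, 6 from males given saline, 5 from females given cisplatin at 15 mg/kg and 7 from females given saline. Cisplatin is a platinum drug that crosslinks DNA and injures kidney tubules, and the comparison addressed how the inner medulla of either sex differs after it. Nothing in the labels ties a library to 1 animal, so the p-values describe the spread between libraries, part of which may be technical.

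Endothelial cells line the blood vessels. In the inner medulla these vessels are the vasa recta, whose descending limbs have a closed endothelium and whose ascending limbs have a fenestrated endothelium closed by diaphragms of the Plvap protein. VEGF-A, made largely by tubule cells, acts on endothelial cells through the receptor Kdr, with Flt1 as a competing receptor and Nrp1 as a co-receptor, while the angiopoietins act through the receptor Tek, which the phosphatase Ptprb restrains. Factors of the ETS, SoxF and Kruppel-like families keep endothelial genes switched on.

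Library totals were 18.1 to 27.3 (in units of 1000000 counts). Levels are given in counts per 1000000 (CPM) after TMM scaling, which corrects library totals for differences in composition. Aqp2, the water channel of the collecting duct, averaged 5832 to 6718 CPM in the 4 groups, as fits the labelled tissue, and no member had 0 counts in any library. The cisplatin libraries were unlike each other. Lcn2, a secreted marker of tubule injury, stood at 4021, 6589, 2578, 1265, 2471 and 213 CPM in male cisplatin 1 to 6 and at 546, 111, 122, 3529 and 2097 CPM in female cisplatin 1 to 5, against 49.4 to 129 CPM in the saline libraries. Summed markers of the thick ascending limb, a tubule segment of the outer medulla, ranged from 2397 to 9110 CPM in male cisplatin, from 2935 to 14651 CPM in male saline, from 4328 to 10196 CPM in female cisplatin and from 1254 to 12670 CPM in female saline libraries. Male cisplatin 5, female saline 1 and female saline 6 were also left out together as an alternative, a choice made with earlier results of these data known. These were not simply the libraries with the lowest sums, since male saline 2 (2935 CPM) was kept and female saline 1 had 3037 CPM.

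Promoter sequence was examined because several members encode ETS or Kruppel-like factors whose binding cores are short and known. Of the 33 members 18 had promoters in the RefSeq table (build GRCm38.p6), giving 23 windows that ran from 250 to 31 bases before the transcription start. AGGAAG, a longer form of the ETS core GGAA, was searched on both strands (CTTCCT on the other). It was in 11 of the 23 windows (47.8%), against 26.1% of all 32851 windows of that length. Other sites that hold GGAA were not counted. The Kruppel-like core CACCC, read on both strands (GGGTG on the other), was in 12 of 23 (52.2%), against 47.8% of all windows. Some members had more than 1 window, and by gene AGGAAG and CACCC were each in 10 of the 18 members. The count by gene was not made over all genes. These matches describe letters in a window and show no binding. The windows below belong to the members Emcn, Eng, Tek and Erg, which were lower after cisplatin, and to Cldn5, which was higher, so that the regions before genes that moved in opposite directions can be set side by side. Capitals mark AGGAAG and CACCC on either strand, and no match of either overlapped a match of the other.
Emcn: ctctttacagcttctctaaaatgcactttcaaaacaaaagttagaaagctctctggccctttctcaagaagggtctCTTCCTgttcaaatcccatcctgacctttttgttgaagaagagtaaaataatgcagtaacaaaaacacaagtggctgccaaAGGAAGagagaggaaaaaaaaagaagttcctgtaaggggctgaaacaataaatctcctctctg
Eng: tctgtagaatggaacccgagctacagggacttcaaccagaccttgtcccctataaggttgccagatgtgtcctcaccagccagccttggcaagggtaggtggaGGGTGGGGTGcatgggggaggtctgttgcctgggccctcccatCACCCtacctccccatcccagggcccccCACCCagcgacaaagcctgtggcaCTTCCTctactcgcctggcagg
Tek: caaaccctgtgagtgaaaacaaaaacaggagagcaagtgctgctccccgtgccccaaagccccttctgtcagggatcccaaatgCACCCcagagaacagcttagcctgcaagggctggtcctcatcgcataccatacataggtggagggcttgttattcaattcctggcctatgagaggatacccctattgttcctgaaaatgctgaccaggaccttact
Erg: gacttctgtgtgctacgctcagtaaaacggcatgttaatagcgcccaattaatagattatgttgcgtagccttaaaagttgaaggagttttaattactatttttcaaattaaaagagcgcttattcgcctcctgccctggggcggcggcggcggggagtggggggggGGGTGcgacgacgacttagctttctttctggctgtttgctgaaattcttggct
Cldn5: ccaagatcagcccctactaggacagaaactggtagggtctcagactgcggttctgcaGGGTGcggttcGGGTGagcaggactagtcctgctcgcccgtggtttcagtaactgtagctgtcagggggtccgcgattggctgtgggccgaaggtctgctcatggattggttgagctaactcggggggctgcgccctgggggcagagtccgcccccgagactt
Emcn (chr3:137340828-137341047, plus strand) held 2 matches of AGGAAG and 0 of CACCC, with both strands counted. Eng (chr2:32646345-32646564, plus strand) held 1 and 4, Tek (chr4:94739039-94739258, plus strand) 0 and 1, Erg (chr16:95586624-95586843, minus strand) 0 and 1, and Cldn5 (chr16:18776597-18776816, plus strand) 0 and 2.

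In saline libraries the members spanned a wide range of abundance. Per kilobase of exon (the scale used here between genes), Plvap led with 454.5 ± 49.1 CPM per kb (SD, n = 13), followed by Eng with 99.6 ± 11.1 and Emcn with 99.4 ± 24.9, whose ranges overlapped. Esam, Angpt2, Pecam1 and Vegfa lay between 46.0 and 55.5 CPM per kb and overlapped each other in their ranges. The receptors Kdr (7.34 ± 1.07) and Flt1 (8.87 ± 1.16) stood well below Tek (28.3 ± 3.19), with no overlap between either and Tek. The exon length joins all annotated exons of a gene, 13504 bases for Flt1, 9030 for Kdr, 16064 for Vwf and 4712 for Tek. In CPM Flt1 (98.5 to 146) overlapped Tek (125 to 153) in male saline libraries, while Kdr (52.3 to 88.0) lay below Tek. At the low end were Vwf (4.52 ± 0.59), Cldn5 (4.50 ± 1.47), Sox7 (3.18 ± 0.63), Apln (1.43 ± 0.44) and Aplnr (0.53 ± 0.29). The most abundant member was thus the gene of the fenestral diaphragm, and the tight junction gene Cldn5 was near the bottom. These levels are for bulk tissue, in which fewer endothelial cells and less RNA per endothelial cell cannot be told apart, here and in every result that follows. For members that other cells also express, a change in those cells cannot be told apart from these either.

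More of the 33 genes fell than rose in cisplatin relative to saline inner medulla. In males 14 members fell and 2, Cldn5 and Vwf, rose (edgeR quasi-likelihood test, Benjamini-Hochberg adjusted p under 0.05 over all 18005 genes), against a background of 7.54% of all genes lower and 13.2% higher. The median log2 fold change of the members was -0.41, against 0.02 over all genes tested. In females 0 of 33 passed the edgeR test, with 0 by DESeq2, and 6 members (of 33) had an unadjusted p under 0.05, where 14.8% of all genes did. In females 0.0722% of all genes were called lower and 0.2% higher, and the median of the members was -0.20, against 0.01 over all genes. For the mean of both sexes 14 members fell and 3 rose, Cldn5, Vwf and Sox17, against a background of 10.9% lower and 16.2% higher, with a median of -0.32 (27.1% of all genes in either direction). The male contrast and the mean share the male libraries, and 15 members were called in both. The 14 lower calls in males became 9 without male cisplatin 5, female saline 1 and female saline 6, 7 with the male libraries fitted alone, 7 without male cisplatin 2, 8 without male cisplatin 3 and 18 without male cisplatin 6. Lower calls over all genes moved the same way, from 1357 to 1049, 911, 762, 799 and 2152 in that order. Leaving out those 3 libraries ended the male calls of Pecam1, Cdh5, Ehd3, Ets1, Podxl and Vwf and the mean calls of Pecam1, Sox7 and Sox17. Pecam1, Cdh5, Ehd3, Sox7, Ets1 and Podxl were each lost in males without male cisplatin 2 or male cisplatin 3, and Emcn without male cisplatin 2 or male saline 2. The male call of Cdh5 was also lost without male cisplatin 1, male cisplatin 5, any 1 of male saline 1 to 6, or female saline 3. Other single libraries that ended a male call when left out were male cisplatin 5, male saline 1 and male saline 2 for Pecam1, male cisplatin 5 and male saline 1, 4 and 5 for Ehd3, male saline 1, 2 and 4 for Ets1, and male saline 6 for Sox7. The male call of Vwf was lost without male cisplatin 4, male cisplatin 5, male saline 5 or male saline 6, and the mean call of Sox7 without male saline 6 or female cisplatin 5. Over all 32 alternatives the highest adjusted p of a member called in males was 0.119 (Cdh5).

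**Figure D1:**
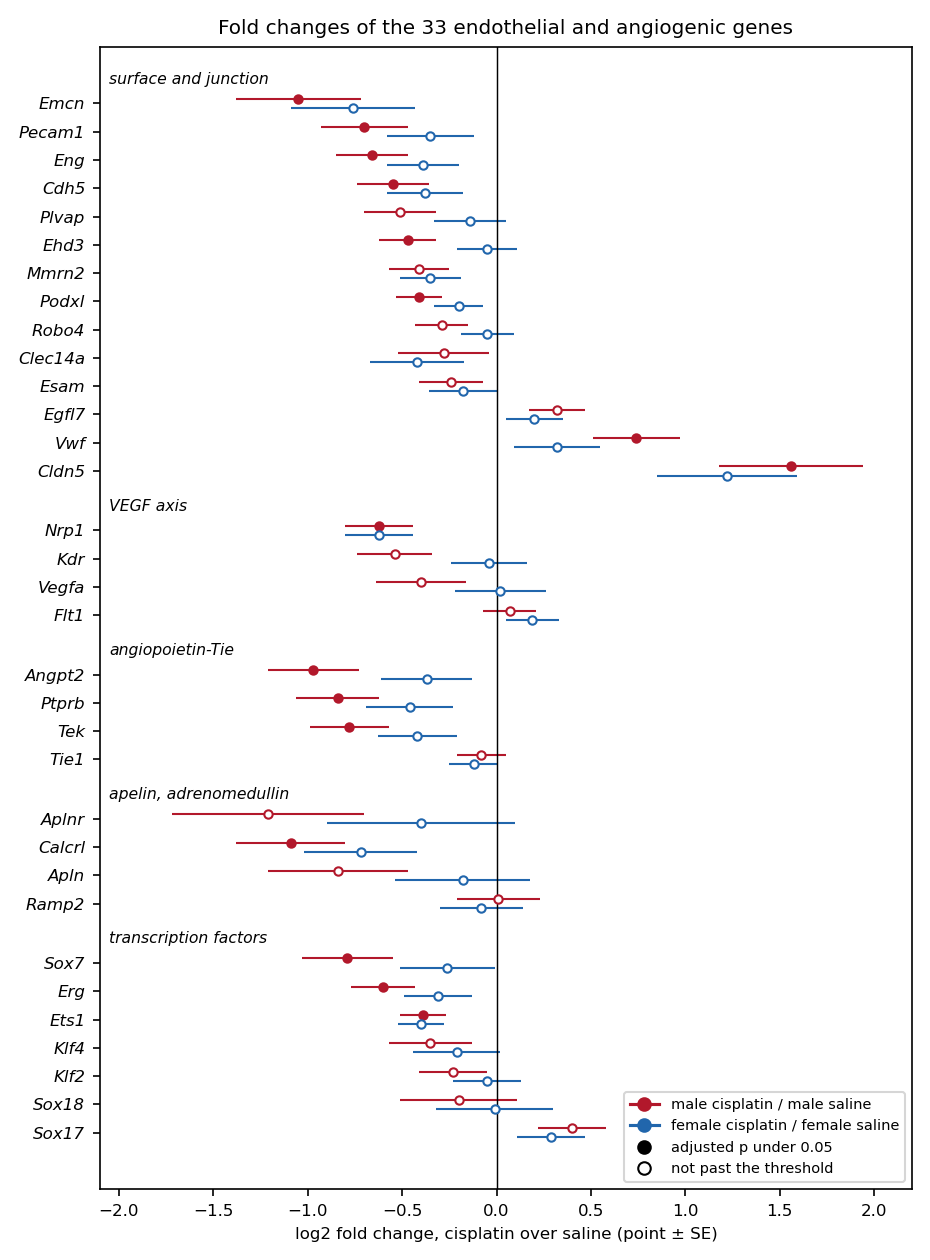
Log2 fold change (cisplatin over saline, x axis) with its standard error for each of the 33 genes, grouped by role, in males (red) and females (blue). Filled points passed the edgeR test at an adjusted p under 0.05. Most points of both sexes lie left of 0, and Cldn5, at 1.56 in males and 1.22 in females, lies farthest right.

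Of the 14 surface and junction genes, 6 fell and 2 rose in males, and 6 fell and 2 rose in the mean of both sexes. Emcn encodes endomucin, a sialomucin of capillary and venous endothelium. It had a lowest, median and highest level of 72.9, 230.5 and 509.8 CPM in male cisplatin libraries, against 442, 496 and 639 CPM in male saline libraries. Only male cisplatin 6, at 509.8 CPM, reached the male saline range. Emcn had 426, 426, 349, 176 and 256 CPM in female cisplatin libraries, against 329.9, 514 and 792 CPM as the lowest, median and highest of female saline libraries, so that 2 of 5 lay below that range. The log2 fold change was -1.05 ± 0.33 (SE) in males (edgeR adjusted p = 0.0259) and -0.76 ± 0.33 in females (edgeR adjusted p = 0.292).

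Pecam1, an adhesion molecule of the endothelial cell border, had 84.9, 167 and 363 CPM (lowest, median, highest) in male cisplatin libraries, against 267, 287 and 356 CPM in male saline libraries. Male cisplatin 6 was above all male saline libraries while the others were below them. In female cisplatin libraries it had 285, 279.9, 249, 165 and 202 CPM, against 219.9, 296 and 369 CPM in female saline libraries, and 2 of 5 lay below the saline range. Its log2 fold change was -0.70 ± 0.23 in males (edgeR adjusted p = 0.0311) and -0.35 ± 0.23 in females (edgeR adjusted p = 0.486). Without male cisplatin 6 the male value was -1.02 (edgeR adjusted p = 0.000349). Pecam1 was called in males in 24 of 32 alternative settings, and with each sex fitted alone it was not (edgeR adjusted p = 0.0815).

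Cdh5 encodes VE-cadherin, the adherens junction protein of endothelium. It had 37.0, 60.5 and 107 CPM in male cisplatin libraries, against 96.1, 100.1 and 110.4 CPM in male saline libraries, and male cisplatin 4 and 6 overlapped the saline range. Levels of 106, 96.8, 89.9, 65.0 and 56.4 CPM in female cisplatin libraries stood against 81.7, 112 and 119.6 CPM in female saline libraries. The male log2 fold change of -0.55 ± 0.19 (edgeR adjusted p = 0.0431) was called in 16 of 32 alternative settings, with adjusted p values from 0.00516 to 0.119. The mean over both sexes was -0.46 ± 0.14 (edgeR adjusted p = 0.0153).

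Eng encodes endoglin, a co-receptor for BMP ligands on endothelium. It had 142, 241 and 420.2 CPM in male cisplatin libraries, against 353, 391 and 437 CPM in male saline libraries. Again male cisplatin 6 lay inside the saline range and the other male cisplatin libraries lay below it. Eng had 396, 331, 366, 259 and 228 CPM in female cisplatin libraries, against 333, 413 and 478 CPM in female saline libraries, with 3 of 5 below the lowest saline value. Its log2 fold change of -0.66 ± 0.19 in males (edgeR adjusted p = 0.0159) stayed past the threshold in all 32 alternative settings.

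Podxl, a sialomucin of the luminal surface, had 71.7, 96.0 and 136 CPM in male cisplatin libraries, against 125, 136 and 145 CPM in male saline libraries. In female cisplatin libraries it had 129, 132, 118, 114 and 112 CPM, against 117, 143 and 162 CPM in female saline libraries. The groups overlapped in both sexes, and Podxl had one of the smaller changes among the called members, -0.41 ± 0.12 in males (edgeR adjusted p = 0.0225) and -0.31 ± 0.09 over both sexes (edgeR adjusted p = 0.0135). Podxl is also a podocyte gene. Of 6 other podocyte genes 4 could be tested and 1, Plce1, a phospholipase, rose, by 0.53 ± 0.17 over both sexes (edgeR adjusted p = 0.0217). In that contrast 16.2% of all genes were called higher, so 1 of 4 says little about podocyte genes as a list. Nphs1, the slit diaphragm gene, had at most 10 counts in any library, while Synpo averaged 19.3 to 20.7 CPM in the 4 groups. The summed podocyte list ran from 25.2 to 43.7 CPM in male cisplatin, against 25.5 to 41.7 CPM in male saline, and from 27.4 to 55.8 CPM in female cisplatin, against 19.8 to 41.7 CPM in female saline libraries, and its part in the result was not tested.

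Ehd3, an endocytic ATPase known as a marker of glomerular endothelium, was called in males alone. It had 21.8, 34.8 and 51.4 CPM in male cisplatin libraries, against 47.6, 50.9 and 55.4 CPM in male saline libraries, and -0.47 ± 0.15 as its log2 fold change (edgeR adjusted p = 0.0329). In female cisplatin libraries it had 37.7, 46.4, 35, 43.5 and 44.3 CPM, inside the 29.0 to 49.8 CPM of female saline libraries. The female minus male difference in effect, 0.42 ± 0.22, did not pass (edgeR adjusted p = 0.943).

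Mmrn2, an extracellular matrix protein that binds the surface protein Clec14a, was called in the mean of both sexes and not in either sex. It had 36.1, 65.7 and 75.2 CPM in male cisplatin libraries, against 74.7, 79.0 and 90.3 CPM in male saline libraries. Levels in female cisplatin libraries were 95.8, 68.0, 93.9, 64.4 and 46.8 CPM, against 74.3, 93.7 and 111 CPM in female saline libraries. The male ranges barely touched, and 3 of 5 female cisplatin libraries lay below the female saline range. The mean log2 fold change was -0.38 ± 0.12 (edgeR adjusted p = 0.0169).

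The remaining surface genes that did not pass in any contrast were Plvap, Robo4, Clec14a, Esam and Egfl7. Plvap, the diaphragm gene, had 345, 612 and 1095 CPM in male cisplatin libraries, against 796, 881 and 1014 CPM in male saline libraries, and -0.51 ± 0.19 as its log2 fold change (edgeR adjusted p = 0.0553). All male cisplatin libraries but number 6 lay below the male saline range. Plvap was called in males in 3 of 32 alternative settings. Its adjusted p over the edgeR and DESeq2 settings ran from 0.00104, without number 6, to 0.136. Without number 6, lower calls over all genes rose too, from 1357 to 2152. Egfl7, a secreted endothelial protein, had positive values, 0.32 ± 0.15 in males (edgeR adjusted p = 0.13) and 0.20 ± 0.15 in females (edgeR adjusted p = 0.56). Robo4, Clec14a and Esam had log2 fold changes between -0.42 and -0.05 in both sexes.

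**Figure D2:**
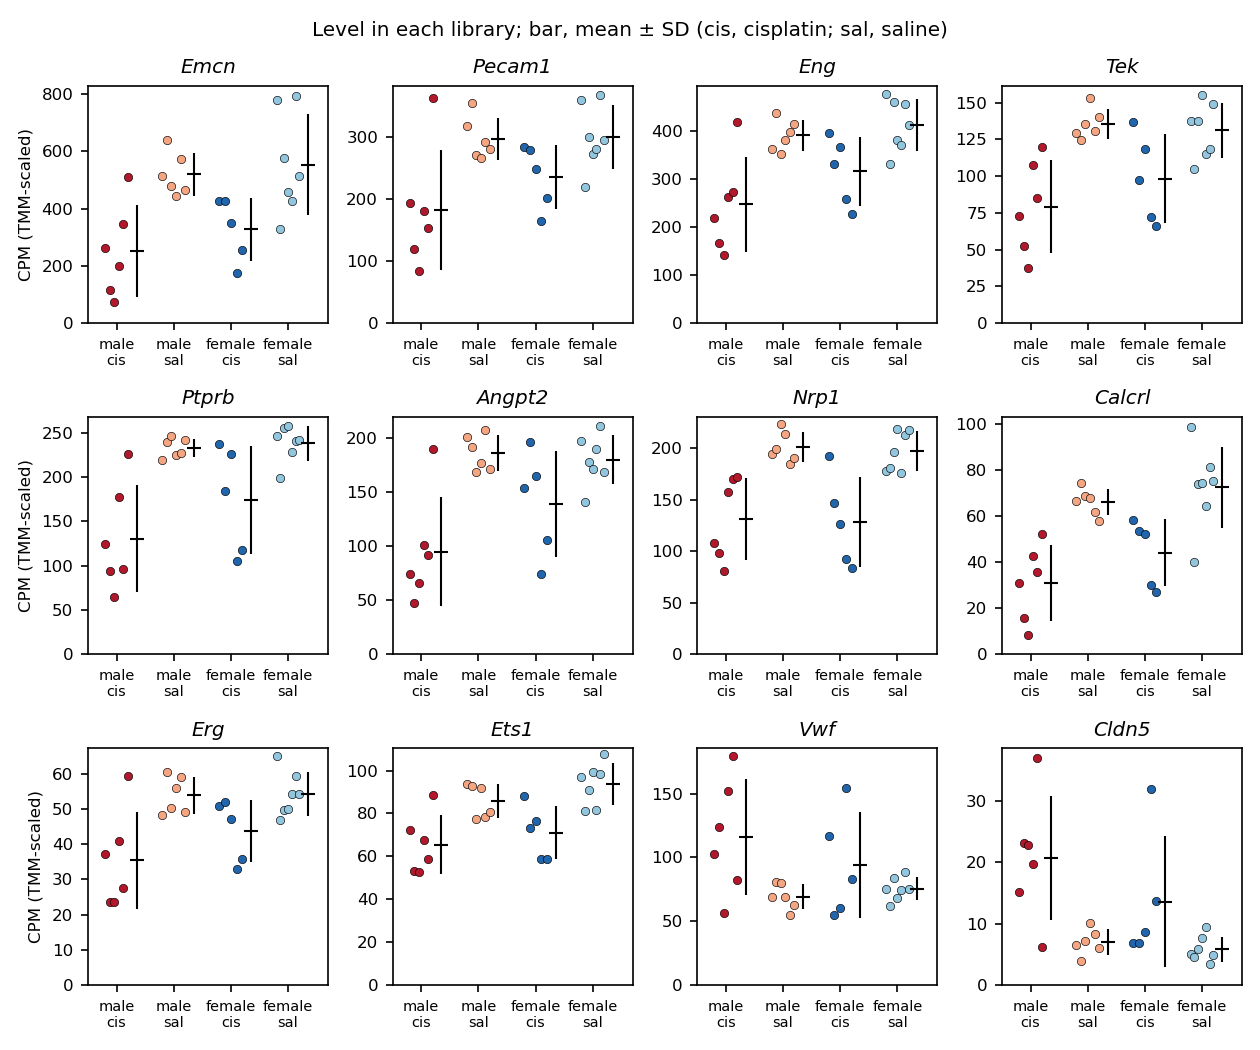
CPM (TMM-scaled, y axis) of 12 members in each library, with the mean and SD of each group as a bar. In most panels 1 male cisplatin library, number 6, sits at the saline level and the others lie lower, while Vwf and Cldn5 run the other way.

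Both members that rose in males are also surface or junction genes. Cldn5 encodes claudin 5, the main tight junction claudin of endothelium. Its levels were 15.2, 23.1, 22.8, 19.7, 36.9 and 6.2 CPM in male cisplatin 1 to 6, against 3.84 to 10.1 CPM in male saline libraries. Only male cisplatin 6 lay inside the male saline range, and the other male cisplatin libraries were above it. The 5 female cisplatin libraries had 6.82, 6.79, 8.65, 32.0 and 13.6 CPM, against 3.46, 5.03 and 9.43 CPM as the lowest, median and highest in female saline libraries, and numbers 4 and 5 were above the saline range. The log2 fold change was 1.56 ± 0.38 in males (edgeR adjusted p = 0.00751), 1.22 ± 0.37 in females (edgeR adjusted p = 0.168) and 1.39 ± 0.27 over both (edgeR adjusted p = 0.001). The call in males held in all 32 alternative settings.

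Vwf encodes von Willebrand factor, the clotting protein stored in endothelial cells and platelets. Its levels were 103, 124, 56.5, 152, 179 and 81.9 CPM in male cisplatin 1 to 6, against 55.2 to 80.6 CPM in male saline libraries. Female cisplatin libraries had 117, 55.1, 60.3, 154 and 82.8 CPM, against 61.6 to 88.7 CPM in female saline libraries. Male cisplatin 3 and female cisplatin 2, 3 and 5 were not above the saline range of their sex. The log2 fold change was 0.74 ± 0.23 in males (edgeR adjusted p = 0.0262) and 0.32 ± 0.23 in females (edgeR adjusted p = 0.535). Over both sexes it was 0.53 ± 0.16 (edgeR adjusted p = 0.0197), a call that was lost without female cisplatin 4 (edgeR adjusted p = 0.0646). That call was also lost with replicate number as a block in the model (edgeR adjusted p = 0.0789). Of 9 platelet genes 4 could be tested and 1, Itga2b, the platelet integrin gene, rose, by 0.63 ± 0.16 over both sexes (edgeR adjusted p = 0.00569). In that contrast 16.2% of all genes were called higher, so 1 of 4 says little about platelet genes as a list. The platelet gene Gp1bb had 0 counts in all libraries, and the platelet chemokine Pf4 averaged 0.70 CPM in male cisplatin and 0.70 CPM in male saline libraries. Itga2b averaged 85.5 CPM in male cisplatin and 44.3 CPM in male saline libraries, where Ppbp averaged 0.342 and 0.554 CPM and Gp1ba 1.21 and 1.30 CPM. The summed platelet list, thus nearly all Itga2b, ran from 60.1 to 143 CPM in male cisplatin, against 42.8 to 54.8 CPM in male saline libraries. In females the sum ran from 36.7 to 94.4 CPM in cisplatin, against 32.9 to 71.5 CPM in saline libraries. The part of platelets in the Vwf result was not tested.

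Of the 4 VEGF axis genes 1, Nrp1, fell, in males and in the mean of both sexes. Nrp1, the neuropilin co-receptor, had 80.4, 133 and 172 CPM in male cisplatin libraries, against 185, 197 and 223 CPM in male saline libraries, with no overlap. It had 193, 147, 127, 92.5 and 84.0 CPM in female cisplatin libraries, against 175, 197 and 218 CPM in female saline libraries, so that 4 of 5 lay below the saline range. The log2 fold change was the same in both sexes to 2 decimals, -0.62 ± 0.18, with an edgeR adjusted p of 0.0191 in males and 0.153 in females. Without female cisplatin 1, whose 193 CPM lay inside the saline range, Nrp1 passed in females (edgeR adjusted p = 0.0374), the 1 member that did so in any of the female alternatives. That was 1 of 32 alternative settings. The adjusted p of Nrp1 in females ran up to 0.595 over the edgeR and DESeq2 settings.

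The ligand and the signalling receptors of this axis did not pass. Vegfa had 88.3, 158 and 213 CPM in male cisplatin libraries, against 112, 206 and 269 CPM in male saline libraries. Its log2 fold change was -0.40 ± 0.24 in males (edgeR adjusted p = 0.231) and 0.02 ± 0.24 in females (edgeR adjusted p = 0.978). Kdr, the main signalling receptor, had 25.7, 46.3 and 72.4 CPM in male cisplatin libraries, against 52.3, 65.8 and 88.0 CPM in male saline libraries (log2 fold change -0.54 ± 0.20, edgeR adjusted p = 0.0502). In females the value of Kdr was -0.04 ± 0.20 (edgeR adjusted p = 0.935). Flt1, the competing receptor, had 0.07 ± 0.14 in males (edgeR adjusted p = 0.752) and 0.19 ± 0.14 in females (edgeR adjusted p = 0.528). Kdr thus sat at the edge of the threshold in males and was called in 8 of 32 alternative settings. Its adjusted p over the edgeR and DESeq2 settings ran from 0.00694, without male cisplatin 6, to 0.127.

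Of the 4 angiopoietin-Tie genes 3 fell, Angpt2, Tek and Ptprb, in males and in the mean of both sexes, and all 3 male calls held in all 32 alternative settings. Angpt2, a ligand that in many settings opposes Tek activation, had 47.3, 82.4 and 189.6 CPM in male cisplatin libraries, against 168, 184 and 207 CPM in male saline libraries. Male cisplatin 6 held the highest value and lay inside the saline range, and the other 5 lay below it. In female cisplatin libraries it had 154, 196, 164, 73.7 and 105 CPM, against 141, 178 and 211 CPM in female saline libraries, and numbers 4 and 5 were below that range. The log2 fold change of Angpt2 was -0.97 ± 0.24 in males (edgeR adjusted p = 0.00803) and -0.37 ± 0.24 in females (edgeR adjusted p = 0.474).

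Tek, the angiopoietin receptor, had 37.7, 78.8 and 119.9 CPM in male cisplatin libraries, against 125, 133 and 153 CPM in male saline libraries, with no overlap. Levels in female cisplatin libraries were 137, 97.5, 118, 72.5 and 65.8 CPM, against 105, 138 and 156 CPM in female saline libraries, and 3 of 5 were below the saline range. The female log2 fold change was -0.42 ± 0.21 (edgeR adjusted p = 0.359), and the mean over both sexes was -0.60 ± 0.15 (edgeR adjusted p = 0.00557). Ptprb, the phosphatase that acts on Tek and VE-cadherin, had 64.7, 110.2 and 226 CPM in male cisplatin libraries, against 219.8, 233 and 246 CPM in male saline libraries. The 5 female cisplatin libraries had 237, 184, 226, 105 and 117 CPM, against 199, 241 and 257 CPM in female saline libraries. Again male cisplatin 6 alone overlapped the male saline range, and 3 of 5 female cisplatin libraries lay below the female one. Its log2 fold change was -0.84 ± 0.22 in males (edgeR adjusted p = 0.0119) and -0.46 ± 0.23 in females (edgeR adjusted p = 0.348). Tie1, the orphan partner of Tek, had -0.08 ± 0.13 in males (edgeR adjusted p = 0.678) and -0.12 ± 0.13 in females (edgeR adjusted p = 0.698).

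Of the 4 apelin and adrenomedullin genes 1, Calcrl, fell. Calcrl encodes the receptor that, with Ramp2, binds adrenomedullin. It had 8.24, 33.2 and 51.9 CPM in male cisplatin libraries, against 57.7, 67.0 and 74.1 CPM in male saline libraries, with no overlap. Female cisplatin libraries had 58.2, 53.3, 51.9, 30.0 and 26.8 CPM, against 40.0, 74.1 and 98.4 CPM in female saline libraries. Calcrl had the largest fall of the members called in males, -1.09 ± 0.29 (edgeR adjusted p = 0.0126), with -0.72 ± 0.30 in females (edgeR adjusted p = 0.272). Its partner Ramp2 had 0.01 ± 0.22 in males (edgeR adjusted p = 0.987) and -0.08 ± 0.22 in females (edgeR adjusted p = 0.893). Ramp2 shares 33.4% of its exon bases with Vps25 on the same strand, so its counts are uncertain. The ligand Apln and the receptor Aplnr were scarce. Aplnr had 0.276, 0.814 and 1.37 CPM in male cisplatin libraries, against 0.588, 2.05 and 2.78 CPM in male saline libraries, and -1.21 ± 0.51 as its log2 fold change (edgeR adjusted p = 0.0913). Apln had -0.84 ± 0.37 in males (edgeR adjusted p = 0.1), and neither passed.

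Of the 7 transcription factor genes 3, Erg, Ets1 and Sox7, fell in males and in the mean of both sexes, and Sox17 rose in the mean. Erg, an ETS factor that maintains endothelial identity, had 23.6, 32.5 and 59.3 CPM in male cisplatin libraries, against 48.2, 53.2 and 60.5 CPM in male saline libraries. In female cisplatin libraries it had 50.9, 51.9, 47.1, 32.9 and 35.8 CPM, against 47.1, 54.2 and 65.2 CPM in female saline libraries. Male cisplatin 6 alone overlapped the male saline range. The log2 fold change of Erg was -0.60 ± 0.17 in males (edgeR adjusted p = 0.0185) and -0.31 ± 0.18 in females (edgeR adjusted p = 0.413). Ets1, an ETS factor that lymphocytes also express, had 52.6, 63.2 and 88.5 CPM in male cisplatin libraries, against 77.2, 86.3 and 93.6 CPM in male saline libraries. Levels in female cisplatin libraries were 88.1, 73.3, 76.6, 59.0 and 58.6 CPM, against 81.4, 97.0 and 108 CPM in female saline libraries, and 4 of 5 were below the saline range. The values of Ets1 were close in the 2 sexes, -0.39 ± 0.12 in males (edgeR adjusted p = 0.0259) and -0.40 ± 0.12 in females (edgeR adjusted p = 0.168).

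The SoxF factors, which act in arterial and lymphatic development, did not move together. Sox7 had 2.27, 5.49 and 10.4 CPM in male cisplatin libraries, against 7.55, 9.92 and 14.4 CPM in male saline libraries. The 5 female cisplatin libraries had 8.07, 9.37, 12.1, 9.24 and 6.40 CPM, against 7.64, 10.6 and 13.3 CPM in female saline libraries. Of the male cisplatin libraries 5 lay below the male saline range, and 1 of the female cisplatin libraries lay below the female one. Its log2 fold change was -0.79 ± 0.24 in males (edgeR adjusted p = 0.0257) and -0.26 ± 0.25 in females (edgeR adjusted p = 0.638). Sox17 had 25.6, 30.6 and 44.8 CPM in male cisplatin libraries, against 16.6, 23.4 and 31.7 CPM in male saline libraries. Female cisplatin libraries had 21, 24.5, 32.6, 36.7 and 32.8 CPM, against 16.8, 23.2 and 31.8 CPM in female saline libraries. All these Sox17 ranges overlapped. Its mean log2 fold change of 0.34 ± 0.13 (edgeR adjusted p = 0.0483) was called in 9 of 31 alternative settings, and Sox17 shares 16.8% of its exon bases with a gene on the other strand. Sox18 had -0.20 ± 0.31 in males (edgeR adjusted p = 0.669) and -0.01 ± 0.31 in females (edgeR adjusted p = 0.991). The flow-responsive factors Klf2 and Klf4 had -0.23 ± 0.18 and -0.35 ± 0.22 in males, with edgeR adjusted p values of 0.364 and 0.266.

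The 2 sexes did not differ at the threshold in any member. The test of the difference between the female and the male cisplatin effect called 0 of 33 with edgeR, with 0 members at an unadjusted p under 0.05 (4.29% of all genes) and 0 with DESeq2, and it called 0% of all genes in either direction. Of the 33 log2 fold changes, 26 were negative in both sexes, 5 were positive in both and 2 had opposite signs. Of the 17 members called in the mean of both sexes all 17 had the same sign in the 2 sexes, and 15 were larger in males. A call in the mean favours members whose 2 effects share a sign, so the shared sign is no separate result. These counts of signs and sizes were not made over all genes. Female saline against male saline libraries gave 0 calls with edgeR, with 0 at an unadjusted p under 0.05 (3.22% of all genes) and 0 with DESeq2, where 0.0611% of all genes were called higher in females and 0.189% in either direction. Female cisplatin against male cisplatin libraries gave 0 calls with edgeR and 0 with DESeq2, with 6 members at an unadjusted p under 0.05 (9.72% of all genes), where 0.106% of all genes were called higher in females and 0.156% in either direction. In that comparison 28 of 33 members had the higher level in females, with a median of 0.27, against -0.02 over all genes.

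Single libraries carried these differences unevenly. Of the 33 members, 21, 25, 26, 17, 22 and 3 lay below the male saline range in male cisplatin 1 to 6, and 2, 13, 3, 18 and 22 lay below the female saline range in female cisplatin 1 to 5. Male cisplatin 6, with 3, and female cisplatin 1 and 3, with 2 and 3, had Lcn2 at 213, 546 and 122 CPM. Female cisplatin 2, with 13 members below, had Lcn2 at 111 CPM, inside the saline range. Saline libraries set against the other saline libraries of their sex had 1 to 6 members below, except male saline 2 with 13 and female saline 2 with 19. The same count per library was not made over all genes, so it is not known whether these numbers are particular to the members. Whether Lcn2 or tubule injury has a part in the levels of the members was not tested. Members whose male cisplatin and male saline ranges did not overlap at all numbered 3 lower (Tek, Nrp1 and Calcrl), against a background of 2.48% of all genes, and 0 higher, against 3.45%. In females there were 0 in either direction, against 0.339% lower and 0.511% higher.

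**Figure D3:**
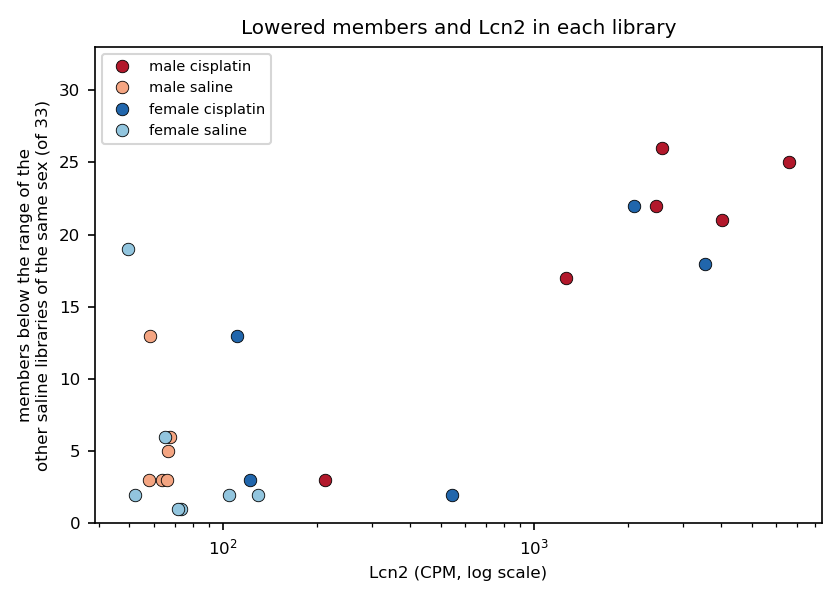
Number of the 33 members below the range of the saline libraries of the same sex (y axis; each saline library is set against the other saline libraries) and Lcn2 in CPM on a log scale (x axis), 1 point a library. The 7 cisplatin libraries with the highest Lcn2 (1265 to 6589 CPM) had 17 to 26 members below the range, and male cisplatin 6 and female cisplatin 1 and 3 had 2 or 3. Female cisplatin 2, with the lowest Lcn2 of the cisplatin libraries (111 CPM), had 13. Male saline 2 and female saline 2 had 13 and 19. The same count was not made over all genes.

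The spread between libraries also differed by treatment. The SD of log2 CPM was larger in male cisplatin than in male saline libraries for 30 of 33 members, with a median of 0.60 against 0.16, and 84.4% of all genes did the same. In females it was larger in cisplatin for 28 of 33, with a median of 0.39 in cisplatin and 0.19 in saline libraries, against 65.4% of all genes. Over all genes the median SD was 0.34 in male cisplatin and 0.18 in male saline libraries, and 0.28 and 0.22 in female ones. The SDs over all genes were taken after adding 0.5 CPM, and those of the members were not.

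Ratios of 4 pairs of members within a library, chosen after their values were seen, are given with no test. The ratio of Vwf to Pecam1 had a median of 0.751 in male cisplatin libraries (0.225 to 1.17), against 0.225 in male saline libraries (0.189 to 0.294). In females the median was 0.411 (0.197 to 0.936) in cisplatin, against 0.256 (0.209 to 0.280) in saline libraries. The ratio of Cldn5 to Cdh5 had a median of 0.327 in male cisplatin libraries (0.058 to 0.736), against 0.066 (0.037 to 0.098) in male saline libraries. Its female cisplatin median was 0.096 (0.064 to 0.492), against 0.055 (0.031 to 0.087) in female saline libraries. Flt1 over Kdr had a median of 3.14 (1.85 to 3.79) in male cisplatin libraries, against 1.75 (1.63 to 2.00) in male saline libraries. Its female median was 1.79 (1.70 to 3.25) in cisplatin and 1.89 (1.57 to 2.06) in saline libraries. Angpt2 over Tek had a median of 1.04 (0.898 to 1.73) in male cisplatin libraries, against 1.39 (1.15 to 1.58) in male saline libraries, and of 1.39 (1.02 to 2.01) in female cisplatin, against 1.34 (1.10 to 1.78) in female saline libraries, with overlap in both sexes. In each of these ratios male cisplatin 6 lay inside the male saline range.

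**Figure D4:**
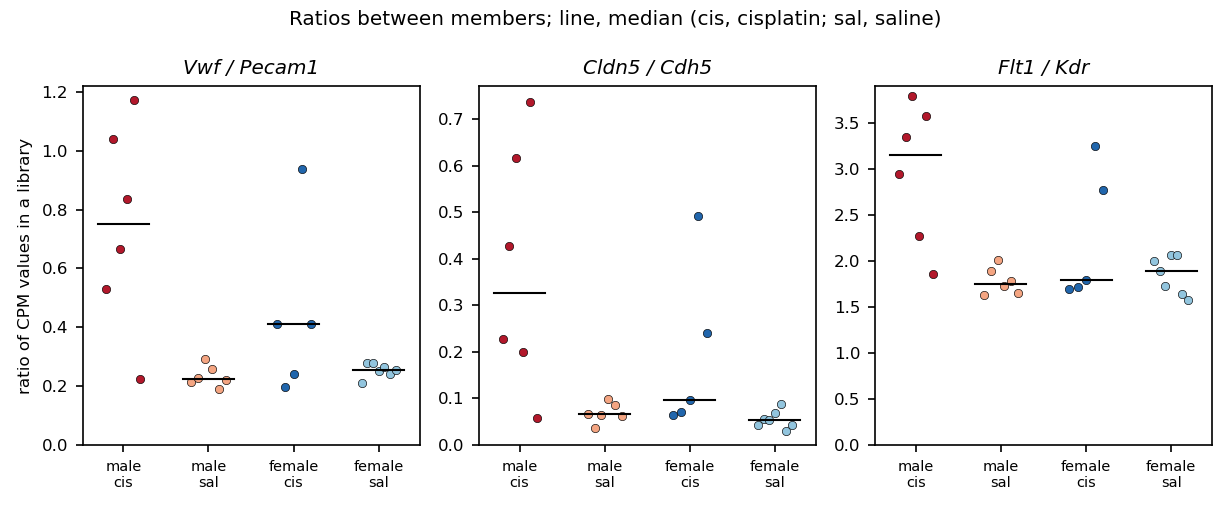
Ratio of CPM values within each library (y axis) for Vwf over Pecam1, Cldn5 over Cdh5 and Flt1 over Kdr, with the median of each group as a line. In each panel 5 male cisplatin libraries lie above all male saline libraries, and male cisplatin 6 lies among the saline libraries.

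Further genes of the same pathways and of endothelium were counted in the same way, beside the 16.2% higher and 10.9% lower calls over all genes in the mean of both sexes. Of 16 other genes of VEGF, angiopoietin and adrenomedullin signalling 3 rose and 5 fell in the mean of both sexes, with a median log2 fold change of -0.11, against 0.01 over all genes. Angpt1, the activating ligand of Tek, averaged 12.2 ± 7.94 CPM in male cisplatin and 4.69 ± 0.94 in male saline libraries (SD, n = 6 each). Its mean log2 fold change was 1.21 ± 0.28 (edgeR adjusted p = 0.00363), opposite in sign to that of Angpt2. Angpt4, another Tek ligand, rose by 1.89 ± 0.39 (edgeR adjusted p = 0.00174). Svep1, a matrix protein that binds Tie1, had -1.16 ± 0.23 (edgeR adjusted p = 0.00123), and Nrp2, the neuropilin of venous and lymphatic vessels, had -0.90 ± 0.26 (edgeR adjusted p = 0.0132). Of 22 other endothelial genes 5 fell and 1 rose, with a median of -0.18. The largest of these changes were in Cd34, a sialomucin of capillaries (-0.82 ± 0.21, edgeR adjusted p = 0.00761), and in Palmd (-0.49 ± 0.13, edgeR adjusted p = 0.0091). Adgrf5, an adhesion receptor of capillary endothelium, and the blood and endothelial factor Tal1 had -0.48 ± 0.15 and -0.36 ± 0.13. Slc14a1, the urea transporter of descending vasa recta, named after its value was seen, had -0.47 ± 0.18 and did not pass (edgeR adjusted p = 0.0526).

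Markers of cells that lie beside or inside vessels moved as well. Of 10 mural cell genes tested 6 fell and 0 rose in the mean of both sexes, against 10.9% lower and 16.2% higher of all genes, with a median of -0.57. Among them were Acta2 (-0.90 ± 0.21), Abcc9 (-0.87 ± 0.23), Rgs5 (-0.72 ± 0.16) and Tagln (-0.72 ± 0.21). Tagln fell from a low level, with 0.667 CPM in male cisplatin and 1.44 CPM in male saline libraries. The smooth muscle gene Cnn1 had at most 14 counts in any library and was not tested. The sum of the mural cell list ran from 112 to 213 CPM in male cisplatin and from 206 to 264 CPM in male saline libraries. In females it ran from 151 to 247 CPM in cisplatin and from 200.3 to 305 CPM in saline libraries. All 5 erythroid genes fell, with a median of -4.74, and none was at 0 in all libraries. Their sum ran from 4.67 to 15.3 CPM in male cisplatin, against 149 to 380.3 CPM in male saline libraries, and from 5.90 to 13.9 CPM in female cisplatin, against 97.5 to 391 CPM in female saline libraries. The part of mural or blood cells in the levels of the 33 members was not tested. With the mean level of tubule markers (proximal and thick ascending limb) in each library as a covariate, 10 members fell in males, where 4.87% of all genes were called lower in that fit. The male calls of Pecam1, Cdh5, Sox7, Ets1, Nrp1 and Vwf and the mean calls of Cdh5, Mmrn2 and Sox7 were lost there.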

How the data were processed

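The values used were the counts the authors deposited, whole numbers of reads or fragments per Ensembl gene identifier and library. Per the submitters' processing notes, the tools were featureCounts, Subread 2.0.1, Trim Galore 0.6.7 and DESeq2 1.28.1, on the mouse build mm10. Per the labels' protocols, poly(A) RNA was selected. The aligner, the gene models and the strandedness of counting were not given in the sources used here. Symbols, exon lengths and exon overlaps came from GENCODE M21, which held 52083 of the 55416 identifiers.

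Libraries were grouped by their labels. In R 4.3.3, genes were kept by edgeR 4.0.16 filterByExpr (minimum count 10), scaled by TMM, and tested with a quasi-likelihood model holding a mean per group over all 24 libraries. P-values were Benjamini-Hochberg adjusted over 18005 genes with a threshold of 0.05, and the scripts were checked on simulated counts. Contrasts were cisplatin against saline in males, in females and as the mean of both, their difference, and female against male under either treatment. The library totals of 18.1 to 27.3 (in units of 1000000 counts) limit precision for the scarcest members. Libraries of a group were compared for copies, and none was found (chi-square per gene at least 7.88 over 61 pairs). Alternatives were other scalings, no filter, DESeq2 1.42.0, each sex alone, a replicate block, a tubule marker covariate, and libraries left out. The members and all lists were chosen with earlier results of these data known. Full values were given for members that passed a cisplatin contrast, and at most 4 called genes were named per other list, those with the largest changes.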

Additional observations from a re-analysis of the deposited data

Results flagged for a closer look

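In 5 of the 132 combinations of member and group, 1 library stood far from the others of its group, where chance alone would give about 1 in 20, or 6.6. In female cisplatin libraries, Cldn5 was at 32.0 CPM in number 4, against 6.79 to 13.6 CPM in the others. Sox18 was at 40.1 CPM in female cisplatin 3, against 17.6 to 23.9 CPM in the others. Aplnr was at 3.90 CPM in the same library, against 0.544 to 1.33 CPM. Ramp2 was at 59.5 CPM in male cisplatin 5, against 17.9 to 29.3 CPM in the other male cisplatin libraries. Cdh5 was at 81.7 CPM in female saline 2, against 108 to 119.6 CPM in the other female saline libraries.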

How the results depend on the processing

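No member's value reversed in a call under any alternative. In males Tek, Eng, Cldn5, Ptprb, Angpt2 and Calcrl were called in all 32 alternatives, and in the mean of both sexes Tek, Emcn, Eng, Cldn5, Erg, Ets1, Podxl, Ptprb, Nrp1, Angpt2 and Calcrl were called in all 31. The 14 lower calls in males became 7 with each sex fitted alone and 9 without male cisplatin 5, female saline 1 and female saline 6, and the 2 higher calls became 1 without those libraries, where Vwf was lost. Over all genes the lower calls in males went from 1357 to 911 and 1049. The higher calls over all genes went from 2374 to 1887 without those libraries. Leaving out 1 library at a time gave 7 to 18 lower and 1 to 2 higher calls in males, 0 to 1 lower in females, and 13 to 19 lower and 1 to 4 higher in the mean. In those fits lower calls over all genes numbered 762 to 2152 in males, 5 to 34 in females and 1313 to 2543 in the mean. Whether replicate numbers pair the libraries is not settled here. Of 33 same-numbered pairs 6 had correlated deviations over 0.1 (range -0.297 to 0.28), but differently numbered pairs were not compared with them. With the replicate number as a block, higher calls became 1 in males, where Vwf was lost (edgeR adjusted p = 0.0571), and 1 in the mean, where Vwf and Sox17 were lost (edgeR adjusted p = 0.0789 and 0.096). Over all genes, the female contrast gave 36 higher and 13 lower calls with edgeR, 152 and 85 with DESeq2, and 9 and 7 with the replicate block. The causes of these shifts were not tested. Depth limits Apln and Aplnr most.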

Other observations

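Genes of arterial and venous specification and Notch signalling were counted too. Of 13 tested, 3 rose and 0 fell in the mean of both sexes, against 16.2% higher and 10.9% lower of all genes, with a median log2 fold change of 0.13. In males 1 rose, Bmx, an arterial endothelial kinase (0.95 ± 0.29, edgeR adjusted p = 0.0227), and 1 fell, Nr2f2, a factor of venous identity (-0.45 ± 0.16, edgeR adjusted p = 0.0488), against 13.2% higher and 7.54% lower of all genes. Neither passed in the mean of both sexes, where Notch4, the endothelial Notch receptor, had 0.31 ± 0.08 (edgeR adjusted p = 0.00793), Efnb2, the arterial ephrin, 0.30 ± 0.11 (edgeR adjusted p = 0.0455), and Jag2 0.21 ± 0.08 (edgeR adjusted p = 0.0471). Of the leukocyte adhesion genes Vcam1 rose by 0.71 ± 0.26 (edgeR adjusted p = 0.0432), and Sele had -1.09 ± 0.30 (edgeR adjusted p = 0.0103) from a low level of 0.851 CPM in male cisplatin and 1.88 CPM in male saline libraries. Selp had at most 14 counts in any library and was not tested.

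The lists that follow are also for the mean of both sexes, where 16.2% of all genes were called higher and 10.9% lower. Of 5 lymphatic genes tested, Pdpn, which encodes podoplanin, rose by 2.01 ± 0.29 (edgeR adjusted p = 6.85e-05), while Flt4, the lymphatic VEGF receptor, had -0.57 ± 0.16 (edgeR adjusted p = 0.0119). The defining lymphatic genes Lyve1 and Ccl21a had at most 5 and 13 counts. Of 11 hypoxia target genes 1, Ldha, rose, by 0.25 ± 0.07 (edgeR adjusted p = 0.011), and 0 fell, with a median of -0.08. This was no larger a share than the 16.2% higher and 10.9% lower of all genes. Of 9 macrophage genes Cd68, a lysosomal protein, rose by 1.63 ± 0.26 (edgeR adjusted p = 0.000192), and Mrc1 and Adgre1 had -0.98 ± 0.27 and -0.97 ± 0.31 (edgeR adjusted p = 0.0108 and 0.0248).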
